A study of Mus musculus with 8 samples.

Results

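The vascular endothelial growth factor (VEGF) ligands and their receptors comprised 10 genes on the arrays, the ligands Vegfa, Vegfb, Vegfc, Vegfd (listed as Figf) and Pgf, and the receptors Kdr, Flt1, Flt4, Nrp1 and Nrp2. They were chosen by the gene name that the array files give each probe, which yielded 21 of 41174 probes. Of these, 17 were kept because 4 or more of the 8 arrays read them well above background, and each of the 10 genes had at least 1 kept probe, among 17099 genes measured. One further probe carried an older name of Nrp2 but lay on another chromosome and was left out. The arrays measured total RNA of whole mouse embryos at embryonic day 9.0. There were 4 pools of Arid3b-null embryos and 4 pools of wild-type embryos, with 3 to 4 embryos in each pool. The labels give no strain, no null allele and no agent, and do not say whether the pools came from separate litters, so p-values reflect the variation among these pools alone. Arid3b encodes a DNA-binding protein with an AT-rich interaction domain.

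VEGF-A is secreted by many tissues of the embryo and binds the tyrosine kinase receptors encoded by Kdr, the main signalling receptor of endothelial cells, and Flt1, which binds VEGF-A tightly but signals weakly and limits the ligand that reaches Kdr. VEGF-B and placental growth factor (Pgf) bind Flt1, whereas VEGF-C and VEGF-D bind Flt4, the receptor of lymphatic and early venous endothelium. Neuropilins, encoded by Nrp1 and Nrp2, are co-receptors that also bind class 3 semaphorins. Mouse embryos are known to be sensitive to the dose of Vegfa.

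Vegfa, Flt1 and Nrp1 were read by several probes that did not lie together, and the sequences below show which stretch of each gene was measured. Each probe holds 60 bases, and the last 30 are given, 5′ to 3′ on the sense strand, with the polyadenylation signal AATAAA in capitals where it occurs.
Vegfa probe 1: agaagatatttaattttgctaacactcagc
Vegfa probe 2: ctaaatcgccaagcccggaagattagggtt
Vegfa probe 3: tagagtacatcttcaagccgtcctgtgtgc
Flt1 probe 1: ttctgcttaaagacttagctttggagccta
Flt1 probe 2: cacaacccatgtatccaggatataaaggct
Flt1 probe 3: tcgtgatcattaagagactttagtaaatgt
Nrp1 probe 1: aactgaacccacagagtaattactcagagg
Nrp1 probe 2: aatgaaagtcgcactgtcAATAAAggcttt
Nrp1 probe 3: attacagcatccaatcaagccgacaggaat
Coordinates are those of the array files, on mouse build mm7. The 3 Vegfa probes lay on the minus strand of chromosome 17, probe 1 at 44146842 to 44146901, probe 2 at 44147967 to 44148026 and probe 3 at 44154831 to 44154890. Flt1 lies on the minus strand of chromosome 5, where probe 1 was at 146456619 to 146456678 and probe 3 at 146456692 to 146456751, the 3′-most of its kept probes. Flt1 probe 2, at 146532609 to 146532668, lay 76.0 kb upstream of probe 1 and is listed under a cDNA clone rather than the reference transcript. On the plus strand of chromosome 8, Nrp1 probe 1 was at 127111352 to 127111411, probe 3 at 127076975 to 127077034 and probe 2, also listed under a cDNA clone, at 126968711 to 126968770, which is 143 kb upstream of probe 1. Nrp1 probe 2 holds AATAAA, as do 4.78% of all 60-base probes on the array (4.25% hold its reverse complement). Shorter, soluble forms of both receptors are known in mouse, and the sources used here do not say which form either clone-based probe detects.

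On the 8 arrays the 75th percentile of processed signal ranged from 1280 to 1703, 59.9% to 64.1% of probes were well above background and no probe was saturated. With 8 arrays, the number of pools limits precision. Arid3b itself, on its brightest probe, averaged 2.02 ± 0.31 in null pools and 3.37 ± 0.08 in wild-type pools (log2 signal relative to the 75th percentile, SD, n = 4 each), a difference of -1.35 with a limma adjusted p of 0.00614. Null pool 4 was the highest null pool, at 2.48, against 1.83 to 1.89 in the other null pools, and the labels do not say which part of the gene was deleted. Slide 1 held pools 1 and 2 of each genotype and slide 2 held the other pools, with null pools at positions 3 and 4 and wild-type pools at positions 1 and 2, so position and genotype cannot be told apart. Averaged over 4 Y-linked genes and set against the highest pool, Y-linked signal was 0.516, 0.870, 0.480 and 1 in null pools 1 to 4, and 0.0228, 0.836, 0.280 and 0.0259 in wild-type pools 1 to 4. Each null pool was above the wild-type pool of its number, so this level is partly tied to genotype. Fits with it as a covariate cannot fully tell it from genotype.

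Across the 10 genes, each taken by its brightest kept probe, Vegfa rose in null embryos and no other gene passed the test. The 1 gene called compares with 3.70% of all genes (2.59% higher, 1.11% lower), at a limma adjusted p under 0.05 over all kept probes. The groups did not overlap for 3 of the 10 genes, Vegfa, Vegfb and Vegfc, against 16.1% of all genes. The median difference was 0.23 on the log2 scale over the 10 genes, 0.39 over the 5 ligands and 0.21 over the 5 receptors, beside -0.01 over all genes. Over the 17 kept probes, 15 had a higher mean in the null pools, 8 had groups that did not overlap (15.7% of all kept probes) and 4 were called, all higher. Of all kept probes 3.46% were called (2.38% higher, 1.08% lower). Pools of the same number deviated together, and a fit that blocked on pool number called 4 genes, Vegfa, Vegfb, Vegfc and Nrp2, all higher (with this replicate block 7.09% of all genes were called higher and 4.91% lower), and 9 of the 17 probes, all higher (6.68% of all kept probes were called higher and 5.18% lower).

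**Figure D1:**
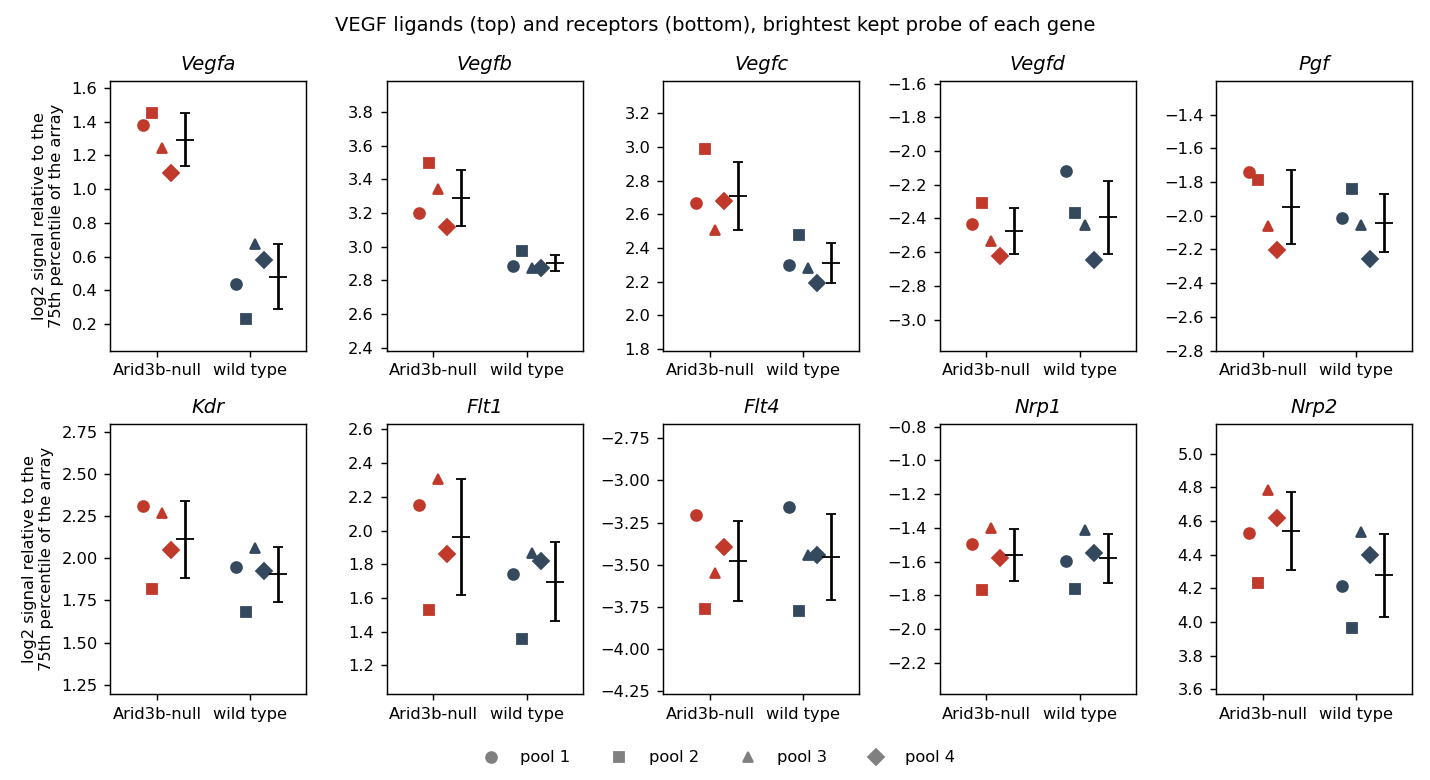
Log2 signal relative to the 75th percentile of each array for the brightest kept probe of the 5 ligands (top row) and the 5 receptors (bottom row). Each symbol is 1 pool of embryos, Arid3b-null left and wild type right in each panel, and the bars give mean ± SD (n = 4). Vegfa, Vegfb and Vegfc have groups that do not overlap, and the symbols of the receptors, of Vegfd and of Pgf overlap.

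Among the ligands, Vegfa was higher in every null pool on each of its 3 probes. Probe 1, the 3′-most, read 1.38, 1.45, 1.24 and 1.10 in null pools 1 to 4, against 0.44, 0.23, 0.67 and 0.58 in wild-type pools 1 to 4. The lowest null pool was thus above the highest wild-type pool, and pool 2 was the highest of the null pools and the lowest of the wild-type pools. The difference was 0.81 ± 0.12 (SE, log2), or 1.76-fold with a 95% interval of 1.45 to 2.13, with a limma adjusted p of 0.0169. Probe 2, spotted 10 times on each array, gave 0.93, 0.75, 0.77 and 0.57 in null pools 1 to 4, against -0.03, -0.05, 0.17 and 0.01 in wild-type pools 1 to 4. The difference was 1.66-fold (0.73 ± 0.10 on the log2 scale, adjusted p 0.0116), and the technical spread of its spots within an array had an SD of 0.033 to 0.073. Probe 3, 7.99 kb upstream of probe 1, gave -1.06, -1.11, -1.45 and -1.54 in null pools 1 to 4, against -1.90, -1.89, -1.89 and -1.96 in wild-type pools 1 to 4. The wild-type pools lay within a narrow band on this probe (SD 0.03), below all null pools (SD 0.24), and the difference was 0.62 ± 0.12 (1.54-fold, adjusted p 0.0359), or 0.41 with normexp background correction (adjusted p 0.995). The brightness of different probes cannot be set against each other, since it also depends on the probe.

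**Figure D2:**
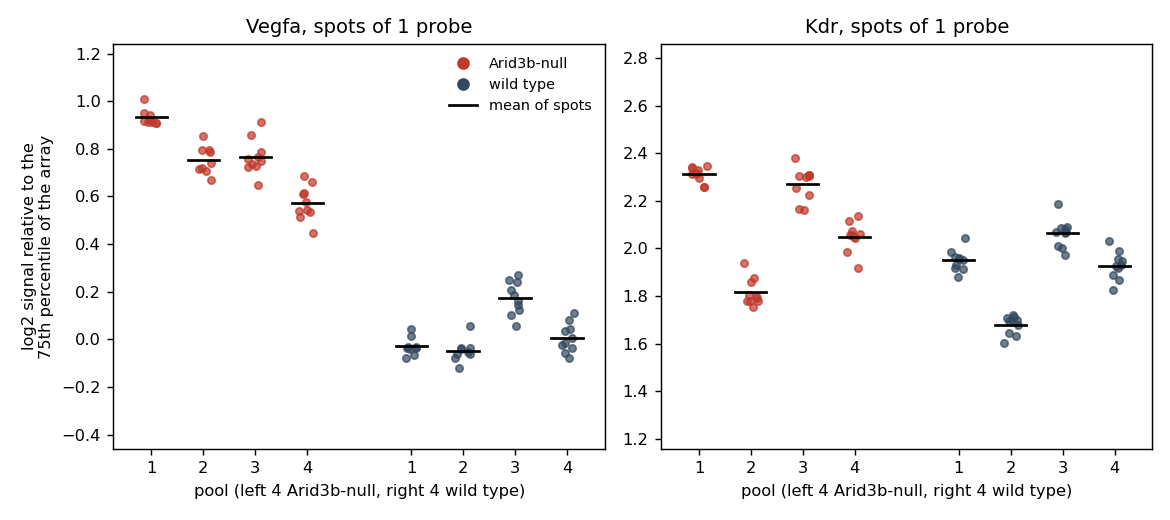
Log2 signal relative to the 75th percentile of the array for each of the repeated spots of 1 Vegfa probe (left, probe 2) and 1 Kdr probe (right, probe 1), with Arid3b-null pools 1 to 4 left of wild-type pools 1 to 4 and a line at the mean of the spots. All Vegfa spots of the null pools lie above all spots of the wild-type pools, whereas Kdr spots of the groups overlap, and pool 2 is the lowest of both groups for Kdr.

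The Vegfa difference was seen on both slides, at 1.08 on slide 1 and 0.54 on slide 2 for probe 1 (adjusted p 0.256 and 0.186 with 2 pools per group), and with slide as a block its adjusted p was 0.0180. Leaving out null pool 3, wild-type pool 1 or wild-type pool 4 ended the call of probe 1 (0.83, 0.80 and 0.85, adjusted p 0.0598, 0.0662 and 0.0575) and of probe 2 (0.73, 0.71 and 0.72, adjusted p 0.0502, 0.0520 and 0.0529), and probe 3 kept its call only without null pool 4 (0.70, adjusted p 0.0258). With the Y-linked level as a covariate the differences were 0.94, 0.81 and 0.64 on probes 1 to 3, with adjusted p of 0.0336, 0.0331 and 0.0860. Whole-embryo arrays cannot tell more cells of a type from more RNA per cell.

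Vegfb and Vegfc, ligands of Flt1 and Flt4, had higher means in null pools but did not pass the test without the block. Vegfb probe 1 read 3.20, 3.49, 3.34 and 3.12 in null pools 1 to 4, against 2.89, 2.97, 2.87 and 2.87 in wild-type pools 1 to 4. No null pool fell within the wild-type range, and the difference was 0.39 ± 0.10 (1.31-fold, adjusted p 0.0678). With the replicate block its adjusted p was 0.0349 and with slide as a block 0.0464, and it was 0.42 and 0.36 within slides 1 and 2. The second Vegfb probe, 0.285 kb upstream, also had separate groups, at 2.30 to 2.60 in null pools and 2.03 to 2.22 in wild-type pools, with a difference of 0.24 ± 0.09 and an adjusted p of 0.207. Vegfc read 2.67, 2.99, 2.51 and 2.68 in null pools 1 to 4, against 2.30, 2.48, 2.28 and 2.19 in wild-type pools 1 to 4. Its groups were separated by a narrow gap, between null pool 3 and wild-type pool 2, and the difference was 0.40 ± 0.12 (1.32-fold, adjusted p 0.106, or 0.0336 with the replicate block), and 0.26 with the Y-linked level as a covariate (adjusted p 0.311).

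Vegfd and Pgf had overlapping groups. Vegfd read -2.43, -2.31, -2.54 and -2.62 in null pools 1 to 4, against -2.12, -2.37, -2.44 and -2.65 in wild-type pools 1 to 4. Wild-type pool 1 was its highest pool, and the difference of -0.08 had a 95% interval of -0.37 to 0.20 (adjusted p 0.783). Pgf read -1.74, -1.79, -2.06 and -2.20 in null pools 1 to 4, against -2.01, -1.84, -2.05 and -2.26 in wild-type pools 1 to 4. Pools 3 and 4 were the lower ones in both genotypes, and the difference of 0.09 had an interval of -0.21 to 0.40 (adjusted p 0.764). Its direction was not stable, at -0.03 with normexp background correction.

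Whether Vegfa differed by more than Vegfb, Vegfc, Pgf, Kdr and Flt1 was tested on the difference of log2 signals per array. The brightest kept probe of each gene was used, and Vegfd, Flt4, Nrp1 and Nrp2 were not paired with Vegfa. Every pair with Vegfa used the same probe 1 values, so these tests are not independent. Probe 1 separated the genotypes by itself, and the members were chosen with earlier results of these data known. The p-values are thus no separate support for the rise of Vegfa. Flt1 probe 2, which was not in these pairs, differed by 0.98 between genotypes, more than Vegfa probe 1 (0.81). Vegfa probes 2 and 3, at 0.73 and 0.62, were not used either. Vegfa minus Vegfb averaged -1.995 ± 0.12 in null pools and -2.42 ± 0.24 in wild-type pools (SD, n = 4 each), so the distance changed by 0.43. The change was 0.41 against Vegfc, 0.72 against Pgf, 0.61 against Kdr and 0.55 against Flt1 probe 1. In all 5 pairs the groups did not overlap, and the exact two-sided permutation p was 0.0286, the smallest that 70 arrangements allow, or 0.0343 adjusted over the 6 pairs tested. These arrangements move pools freely between numbers. Permuted within pools of the same number, each of the 5 had an exact two-sided p of 0.125, the smallest that 16 arrangements allow, so this paired form cannot pass the threshold, and each distance was higher in the null pool of all 4 numbers. Without null pool 2 the change against Flt1 probe 1 was 0.35, and without wild-type pool 2 the change against Vegfc was 0.28. The sixth pair, Flt1 probe 1 minus Kdr, changed by 0.06 with overlapping groups (exact permutation p 0.514, or 0.5 within numbers). On slide 1 and slide 2 alone the change was 0.67 and 0.19 against Vegfb, 0.64 and 0.19 against Vegfc, and 0.83 and 0.38 against Kdr, with no test at 2 pools per group.

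Among the receptors, no gene passed the test on its brightest probe. Kdr probe 1, also spotted 10 times per array, read 2.31, 1.82, 2.27 and 2.05 in null pools 1 to 4, against 1.95, 1.68, 2.06 and 1.93 in wild-type pools 1 to 4. The groups overlapped, although each null pool was above the wild-type pool of its number, and the difference was 0.21 ± 0.13 with a 95% interval of -0.10 to 0.51 (adjusted p 0.447, or 0.0892 with the replicate block). It was 0.13 without wild-type pool 2, 0.12 with the median as the scale, 0.14 where arrays were not shifted and 0.40 with the Y-linked covariate (adjusted p 0.159). The spots of this probe had an SD of 0.031 to 0.069 within an array, against 0.23 between null pools and 0.16 between wild-type pools. A second Kdr probe was not well above background on any array.

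Flt1 was called on 1 of its 3 kept probes. Probe 1, the 3′-most, read 2.15, 1.53, 2.31 and 1.86 in null pools 1 to 4, against 1.74, 1.35, 1.87 and 1.82 in wild-type pools 1 to 4. Pool 2 was the lowest in both genotypes and the groups overlapped, with a difference of 0.26 ± 0.19 (adjusted p 0.489). The adjacent probe 3 gave 0.25 ± 0.18 (adjusted p 0.507). Without wild-type pool 2, null pool 2 or null pool 3 the difference was 0.15, 0.41 and 0.15 on probe 1 and 0.14, 0.38 and 0.14 on probe 3. With the median as the scale it was 0.17 and 0.15 on probes 1 and 3, and with the Y-linked covariate 0.56 and 0.53 (adjusted p 0.121 and 0.137). Probe 2, 76.0 kb upstream, whose last bases are given above, read 0.21, 0.02, 0.06 and -0.30 in null pools 1 to 4, against -0.98, -1.08, -0.83 and -1.04 in wild-type pools 1 to 4. All null pools lay clear of the wild-type pools, and the difference was 0.98 ± 0.12, or 1.98-fold with a 95% interval of 1.63 to 2.39 (adjusted p 0.00785). It was the largest difference among the 17 kept probes, and it was called in each of the 8 fits that left out 1 pool (0.91 to 1.08, adjusted p 0.00381 to 0.0395) and with the Y-linked level as a covariate (1.10, adjusted p 0.0282). On slide 1 it was 1.15 and on slide 2 it was 0.82, and its adjusted p was 0.0102 with slide as a block. Flt1 probe 2 minus probe 1 averaged -1.96 ± 0.33 in null pools and -2.68 ± 0.18 in wild-type pools (SD, n = 4 each). That change of 0.72 had an exact permutation p of 0.0286, or 0.0571 adjusted over the 2 such tests, both chosen after the values were seen, so it did not pass. Within numbers its p was 0.125, the smallest possible. The 2 other Flt1 probes, both listed under cDNA clones, were above background on at most 1 array.

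**Figure D3:**
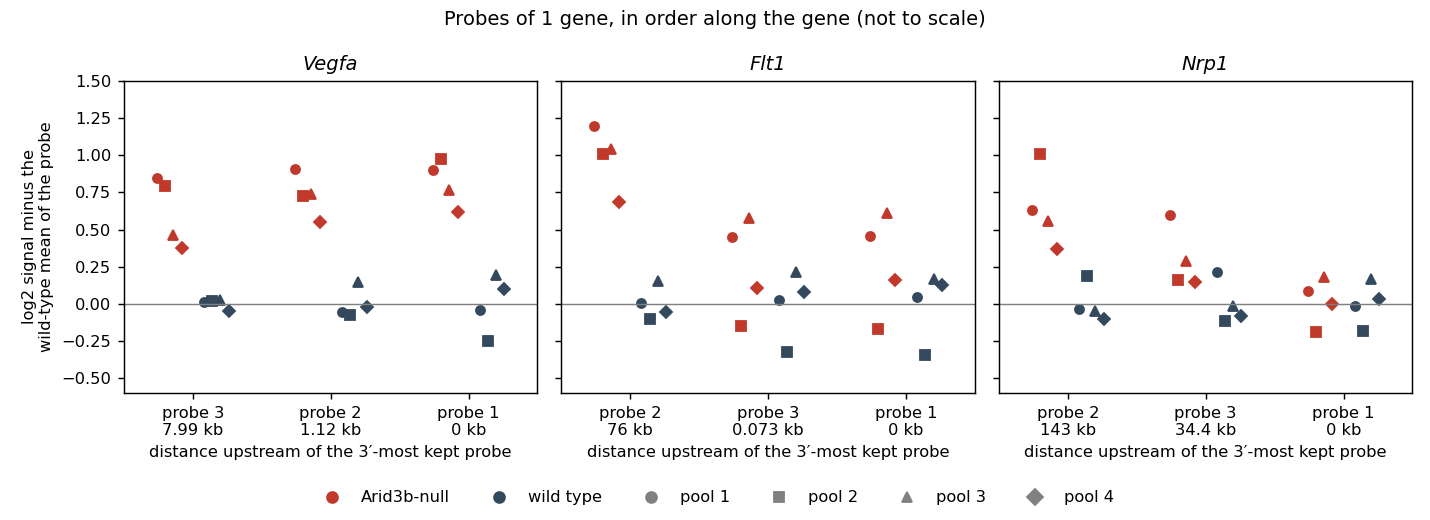
Log2 signal minus the wild-type mean of the probe, for the 3 kept probes each of Vegfa, Flt1 and Nrp1, ordered from upstream (left) to the 3′ end (right) with the distance from the 3′-most kept probe under each. Arid3b-null pools are drawn left of wild-type pools at each probe and symbol shapes give the pool. The null pools lie above the wild-type pools on every Vegfa probe, on Flt1 probe 2 and on Nrp1 probe 2, and overlap them on the other probes of Flt1 and Nrp1.

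Nrp1 was called on none of its 3 kept probes. Probe 1, the 3′-most, read -1.49, -1.77, -1.40 and -1.58 in null pools 1 to 4, against -1.60, -1.76, -1.41 and -1.55 in wild-type pools 1 to 4. The pools of each number were nearly level, and the difference of 0.02 had an interval of -0.23 to 0.27 (adjusted p 0.955) and was below 0 with the median as the scale, no shift between arrays, quantile normalization and normexp. Probe 2, 143 kb upstream and holding AATAAA, read -1.82, -1.44, -1.90 and -2.09 in null pools 1 to 4, against -2.48, -2.26, -2.50 and -2.56 in wild-type pools 1 to 4. Its groups did not overlap, and the difference was 0.64 ± 0.14 (1.56-fold, adjusted p 0.0504), or 0.28 with normexp (adjusted p 0.995). It passed with the replicate block (adjusted p 0.0225), with slide as a block (0.0242), among probes above background on all 8 arrays (0.0387) and without null pool 4 (0.73, adjusted p 0.0388). Probe 3, 34.4 kb upstream, gave 0.30 ± 0.12 (adjusted p 0.227, or 0.0358 with the replicate block), with overlapping groups, and was 0.20 without null pool 1 and 0.054 with normexp. The change of probe 2 minus probe 1 was 0.62, with an exact permutation p of 0.0571, or 0.125 within numbers.

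Flt4 and Nrp2 had overlapping groups. Flt4 read -3.21, -3.76, -3.55 and -3.39 in null pools 1 to 4, against -3.16, -3.78, -3.44 and -3.44 in wild-type pools 1 to 4. Pool 2 was the lowest and pool 1 the highest in both genotypes, and the difference of -0.02 had an interval of -0.39 to 0.34 (adjusted p 0.963). Nrp2 probe 1 read 4.53, 4.23, 4.78 and 4.62 in null pools 1 to 4, against 4.21, 3.97, 4.54 and 4.40 in wild-type pools 1 to 4. The order of the pools was the same in both genotypes and each null pool was above the wild-type pool of its number. The difference was 0.26 ± 0.16 (adjusted p 0.399, or 0.0392 with the replicate block), with 0.16 without wild-type pool 2, 0.17 with the median as the scale and 0.44 with the Y-linked covariate (adjusted p 0.214). Nrp2 probe 1 is listed under a cDNA clone and holds AATAAA. The other Nrp2 probe, listed under the reference transcript, was not above background on any array.

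**Figure D4:**
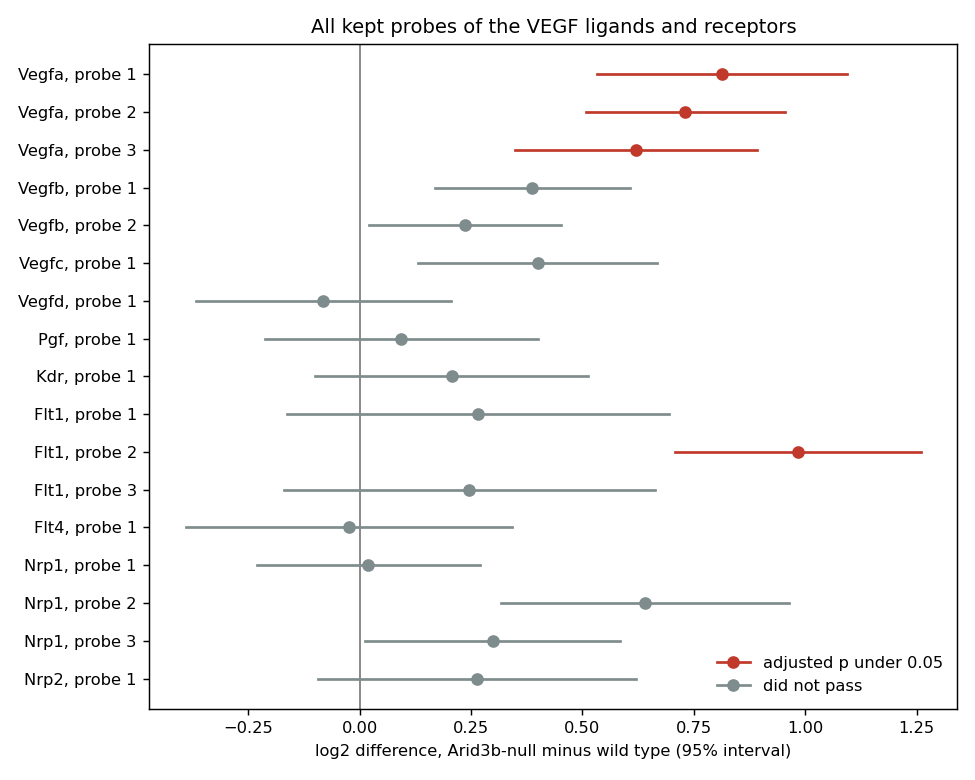
Log2 difference, Arid3b-null minus wild type, with its 95% interval from the limma fit, for the 17 kept probes. Probes with an adjusted p under 0.05 are drawn in red: the 3 Vegfa probes and Flt1 probe 2. Nrp1 probe 2, at 0.64, lies just outside the threshold.

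Over the 8 arrays, the genes whose signal was most like that of Vegfa, among 13860 named genes with a value on each array, were Tecrl (Pearson r 0.988), Ctnna2 (0.984), Ppm1b (0.984), Polk (0.983) and Spata1 (0.982). All 5 were higher in null pools, by 1.01, 0.60, 0.41, 0.51 and 0.42 on the log2 scale. Of the other members Vegfb had the highest r with Vegfa (0.863). With the group means taken out it was 0.24, below Nrp1 (0.32), Kdr (0.30), Nrp2 (0.26) and Flt1 (0.25). For Kdr the genes most like it were Chd2 (0.990), Kmt2e (0.988), Dop1b (0.986), Crocc (0.985) and Clstn2 (0.984), none of which passed the test between genotypes. Flt1 probe 1 ranked 18th for Kdr (r 0.972) and Nrp2 324th (r 0.874). These correlations describe 8 arrays that share slides and depth, and the Vegfa ones include the difference between genotypes.

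On the list of the VEGF receptor signal relay 17 of 39 means were higher in null pools, and Cav1 and Shc1 were called. Of 39 measured genes of the receptor signal relay, 2 rose and 0 fell, beside 2.59% of all genes called higher and 1.11% called lower, and the list median was -0.01. Cav1, which encodes the caveolar coat protein caveolin-1, averaged 0.39 ± 0.32 in null pools and -0.89 ± 0.12 in wild-type pools (SD, n = 4 each), a difference of 1.28 ± 0.16 (SE) with an adjusted p of 0.00785. Shc1, a docking adaptor of tyrosine kinase receptors, rose by 0.36 ± 0.07 (adjusted p 0.0440), a call lost in each of the 8 fits without 1 pool (0.32 to 0.39, adjusted p 0.0617 to 0.133). With the replicate block 4 of the 39 rose and 1 fell, beside 7.09% of all genes called higher and 4.91% called lower.

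Of 25 measured genes known to be induced by VEGF in endothelial cells, 3 rose and 0 fell, against the same 2.59% and 1.11% of all genes, with a list median of 0.13. Esm1, a proteoglycan secreted by endothelial tip cells, averaged 0.20 ± 0.30 in null pools and -1.03 ± 0.04 in wild-type pools (SD, n = 4 each), 2.35-fold higher (1.23 ± 0.14, SE, adjusted p 0.00673). Stc1, which encodes the secreted glycoprotein stanniocalcin 1, rose by 2.20 ± 0.26 (4.59-fold, adjusted p 0.00727) and was above background in 4 of 4 null and 3 of 4 wild-type pools. The size of the Stc1 difference depended on the processing, at 1.21 with the deposited value table (adjusted p 0.0352) and 0.56 with normexp (adjusted p 0.995). Kcne3, a potassium channel subunit, rose by 1.04 ± 0.20 (adjusted p 0.0365), a call kept only without null pool 2 or null pool 4 among the fits that left out 1 pool (0.84 and 1.17, adjusted p 0.0150 and 0.0296). The other 22 did not pass, and 16 of the 25 means were higher in null pools. Nrarp was lower, at -0.39 (limma adjusted p 0.105), with groups that did not overlap. With the replicate block 5 of the 25 rose and 2 fell, against 7.09% and 4.91% of all genes. The gene lists were chosen with earlier results of these data known, so the share called is no independent support. Of 28 listed genes on the array, 3 did not reach the background threshold.

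The called genes of the relay and VEGF-induced lists differed in the same direction on slides 1 and 2, by 1.57 and 0.99 for Cav1, 1.38 and 1.09 for Esm1, 2.38 and 2.02 for Stc1, 1.31 and 0.78 for Kcne3, and 0.38 and 0.34 for Shc1. With the Y-linked level as a covariate Cav1, Esm1 and Stc1 passed (1.35, 1.25 and 2.26, adjusted p 0.0336, 0.0337 and 0.0339), and Kcne3 and Shc1 did not (0.95 and 0.33, adjusted p 0.106 and 0.116).

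Hypoxia-inducible factors (HIF) are known to drive Vegfa transcription. Of 10 measured HIF subunits and regulators 2 rose and 0 fell, beside 2.59% of all genes called higher and 1.11% called lower. The list median was -0.07. Both that rose encode prolyl hydroxylases that mark HIF alpha subunits for destruction. Egln3 rose by 1.13 ± 0.18 (2.19-fold, adjusted p 0.0201), a call lost without null pool 3 or without any 1 of the wild-type pools (1.10 to 1.19, adjusted p 0.0554 to 0.0728). Egln1 rose by 0.84 ± 0.18 (1.79-fold, adjusted p 0.0461), a call kept among those 8 fits only without null pool 4 (0.99, adjusted p 0.0204). On slides 1 and 2 the differences were 1.36 and 0.90 for Egln3 and 0.99 and 0.69 for Egln1, and with the Y-linked level as a covariate neither passed (1.11 and 0.78, adjusted p 0.0659 and 0.124). Hif1a itself averaged 1.55 in null pools and 1.83 in wild-type pools (adjusted p 0.142). Epas1, the other listed HIF alpha gene on the array besides Hif1a and Hif3a, had no kept probe. Whether HIF activity differed between the genotypes was not tested. The letters ACGTG and GCGTG, the core that HIF binds, were searched on both strands in the 250 bases before each transcription start in RefSeq's GRCm38.p6 promoter table, in which all 10 members were matched. They occurred in 7 of 12 member windows and in 38.6% of all 32851 windows. Sequence outside these 250 bases was not searched, so a window without a match does not show that the gene lacks a HIF site. The windows of the genes with called probes are shown with matches in capitals, Vegfa at chr17:46032378-46032627 (minus strand, no match) and Flt1 at chr5:147726012-147726261 (minus strand, 1 match that starts 184 bases before the start site).
Vegfa: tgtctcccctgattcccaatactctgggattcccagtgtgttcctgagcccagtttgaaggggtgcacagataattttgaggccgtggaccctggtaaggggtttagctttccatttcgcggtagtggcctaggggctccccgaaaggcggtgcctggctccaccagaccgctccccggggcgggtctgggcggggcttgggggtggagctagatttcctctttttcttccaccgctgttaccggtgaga
Flt1: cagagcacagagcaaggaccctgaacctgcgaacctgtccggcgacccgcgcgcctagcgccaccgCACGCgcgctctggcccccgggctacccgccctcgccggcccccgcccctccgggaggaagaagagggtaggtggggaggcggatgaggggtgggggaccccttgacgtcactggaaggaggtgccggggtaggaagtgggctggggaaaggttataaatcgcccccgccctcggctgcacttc
A second Vegfa window held 2 matches.

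Among neighbouring families no gene passed the limma test without the replicate block. Of all genes 3.70% were called, and 5206 of the 25555 kept probes had an unadjusted limma p under 0.05. With the replicate block 7.09% of all genes were called higher and 4.91% lower. The PDGF family, the closest relatives of the VEGF family, had 0 of 6 called (1 at an unadjusted p under 0.05, Pdgfb at 0.42 and adjusted p 0.199, or 0.0358 with the replicate block) and a median of 0.12. Angiopoietins, apelin and their receptors had 0 of 7 called (4 at an unadjusted p under 0.05) and a median of 0.28, and the endothelial receptor Tie1, at 0.28, had an adjusted p of 0.109, or 0.0429 with the replicate block, in which 1 gene of the list rose and 1 fell. Class 3 semaphorins and plexins, which share the neuropilins with VEGF, had 0 of 12 called (3 at an unadjusted p under 0.05) and a median of 0.18. Sema3g, a semaphorin of arteries, was at 0.41 with an adjusted p of 0.0572, or 0.0274 with the replicate block and 0.0366 without null pool 4 (0.48), and 2 genes of the list rose with the block. Genes of VEGF-C processing and lymphatic fate had 0 of 7 called (1 at an unadjusted p under 0.05, Ccbe1 at 0.29 and adjusted p 0.223) and a median of -0.03.

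**Figure D5:**
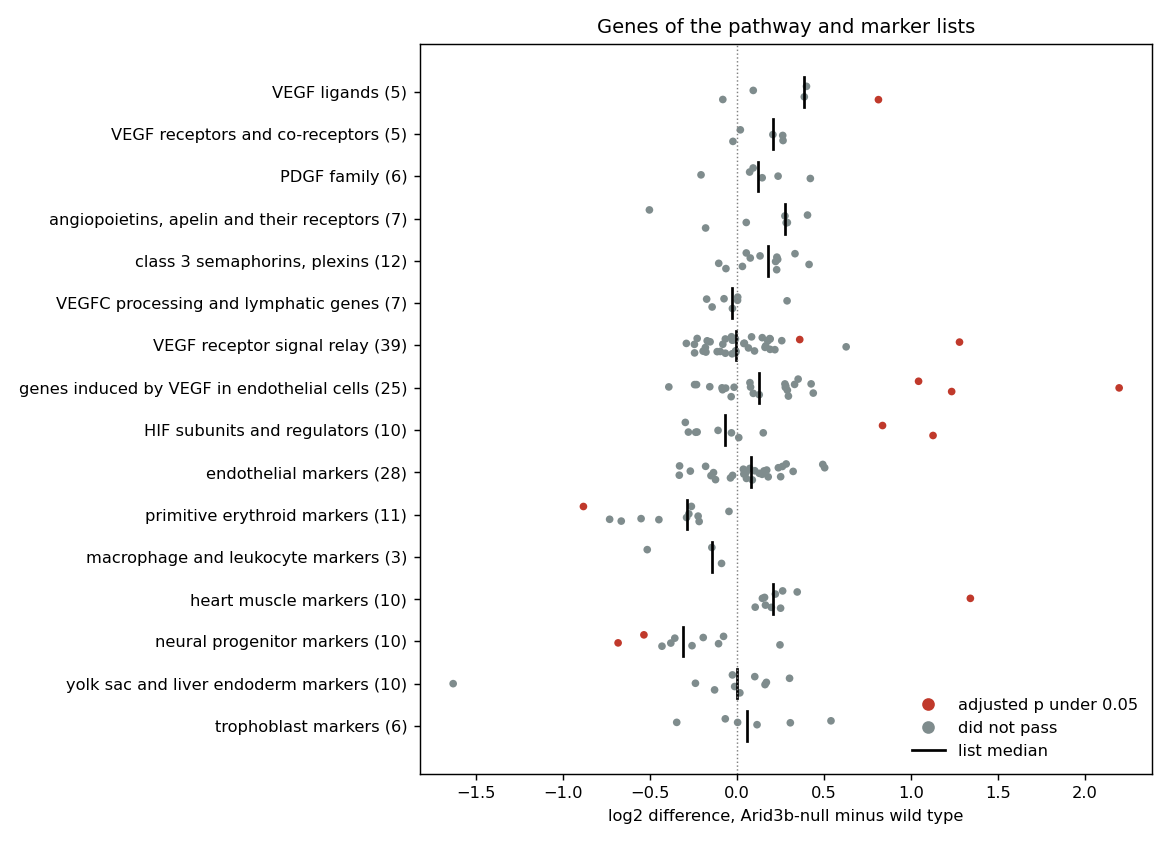
Log2 difference, Arid3b-null minus wild type, of each measured gene (brightest kept probe) in the members' lists, the pathway lists and the cell type marker lists, with the number measured in brackets. Red points passed an adjusted p of 0.05 and bars mark the list median. Red points lie above 0 in the VEGF ligand, relay, VEGF-induced, HIF and heart lists and below 0 in the erythroid and neural lists.

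Markers of cell types moved beside these genes, and their part in the results was not tested. Over all 25555 kept probes, 5206 had an unadjusted limma p under 0.05. Endothelial markers, whose cells carry Kdr, Flt1 and Flt4, had 0 of 28 called by limma (8 at an unadjusted p under 0.05) and a median of 0.08. Their summed level, relative to the wild-type mean, was 0.999 to 1.066 in null pools and 0.968 to 1.026 in wild-type pools, so the ranges overlapped. Of the 28 means 19 were higher in null pools. Among the 8, Cldn5 and Lyl1 were lower, at -0.27 and -0.33 (limma adjusted p 0.0790 and 0.162), and their groups did not overlap. Sox17, an arterial transcription factor, came closest at 0.32 (adjusted p 0.0502, or 0.0358 with the replicate block). With that block 4 endothelial markers rose and 2 fell, beside 7.09% of all genes called higher and 4.91% called lower.

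Heart muscle markers had 1 of 10 called, Nppa, an atrial peptide hormone (1.34 ± 0.29, adjusted p 0.0470), a call kept among the fits without 1 pool only without null pool 2 (1.04, adjusted p 0.0193) and lost with the Y-linked covariate (1.03, adjusted p 0.142). All 10 means were higher, and the summed level was 1.167 to 1.332 in null pools and 0.962 to 1.018 in wild-type pools. With the replicate block 2 heart markers rose. Of all genes 2.59% were called higher and 1.11% lower, or 7.09% and 4.91% with the replicate block. Neural progenitor markers had 2 of 10 called, both lower, with a summed level of 0.834 to 0.864 in null pools and 0.957 to 1.074 in wild-type pools. Their median was -0.31, 1 of the 10 means was higher in null pools and 7 had an unadjusted limma p under 0.05. Fabp7, a fatty acid carrier of radial glia, was at -0.68 (adjusted p 0.0316), kept only without null pool 1 or null pool 2 (-0.74 and -0.73, adjusted p 0.0492 and 0.0462). Sox3, a progenitor transcription factor, was at -0.54 (adjusted p 0.0493). Its call was lost in each of the 8 fits without 1 pool (-0.61 to -0.45) and with the Y-linked covariate (-0.59, adjusted p 0.0923). Sox3 was at -0.34 on slide 2, and no probe on the array was called on either slide alone. With the replicate block 5 neural markers fell and 1 rose, against the same 4.91% and 7.09% of all genes.

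Primitive erythroid markers had 1 of 11 called, lower, beside 1.11% of all genes called lower. In null pools 0 of the 11 means were higher, and the list median was -0.29. An unadjusted limma p under 0.05 was reached by 5 of them, beside 5206 of 25555 kept probes. With the replicate block 0 of the 11 were called. The called gene was Klf1, an erythroid transcription factor (-0.88, adjusted p 0.0400, or 0.0514 with the replicate block). Among the fits without 1 pool Klf1 kept its call only without null pool 4 (-1.04, adjusted p 0.0130). The call was lost with the Y-linked covariate (-1.05, adjusted p 0.0611). Klf1 was at -0.51 on slide 2, and no probe on the array was called on either slide alone. The summed level of the erythroid markers, in which the brightest genes weigh most, was 0.645 to 1.154 in null pools and 0.806 to 1.273 in wild-type pools. Macrophage and leukocyte markers had 3 of 9 genes measured and 0 called, with Csf1r at -0.52 (adjusted p 0.115, or 0.0402 with the replicate block) and Ptprc not kept, and 1 at an unadjusted p under 0.05. Their summed level was 0.732 to 1.017 in null pools and 0.845 to 1.167 in wild-type pools. Yolk sac and liver endoderm markers had 0 of 10 called (1 at an unadjusted p under 0.05, Alb, above background in 1 of 4 null and 3 of 4 wild-type pools, which passed without null pool 1 with an adjusted p of 0.0318). Their summed level was 0.686 to 1.269 in null pools and 0.711 to 1.299 in wild-type pools. Trophoblast markers had 0 of 6 called (1 at an unadjusted p under 0.05, Ascl2 at 0.54 and adjusted p 0.176), with a summed level of 0.813 to 1.167 in null pools and 0.912 to 1.077 in wild-type pools.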

How the data were processed

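Total RNA of 4 Arid3b-null and 4 wild-type pools was hybridised to 1-colour Agilent arrays, and groups and pool numbers were taken from the labels. The processed intensity is each spot's Cy3 brightness with a spatially fitted background removed and a detrending step applied on its own array, per the file headers, and arrays were not scaled to each other. The deposited mean and local background intensities served only for the normexp alternative. The deposited value table holds log2 values of 27108 probes, whose scaling, added constant and background correction are not stated, and was an alternative.

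Each array held 45018 spots, 1639 of them controls, which were left out with 87 to 175 flagged spots. Spots of a probe were averaged as log2 values, then shifted by the 75th percentile of the array. A probe was kept where 4 or more of 8 arrays read it well above background and each group had 2 or more values (25555 probes). The genotypes were tested in R 4.3.3 with limma 3.58.1 (lmFit, eBayes, genotype only), with Benjamini-Hochberg adjustment over all kept probes and a threshold of 0.05. A gene was counted by its brightest kept probe. Folds are ratios of geometric mean signals. Differences between members were tested per array by exact permutation of all pools, with permutation within pool numbers as an alternative. The steps were tested on simulated data. Names were updated through RefSeq tables, by accession for 22951 probes, symbol for 6659 and older name for 3109, and 8455 kept the name in the file.

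Deviations from group means correlated across genes at 0.557, 0.635, 0.523 and 0.426 for pools of the same number, and null pool 3 with wild-type pool 4 also reached 0.496. The labels give no source for a pairing. The main tests used genotype only, and a fit with the pool number as a block is given where it changed a call. Besides all members and Arid3b, the genes named are up to 4 called genes of each list with the smallest adjusted p, or, in a list without a call, the gene with the smallest p, and the 5 genes most like Vegfa and Kdr. Hif1a, Epas1, Ptprc, Cldn5, Lyl1 and Nrarp were added after the values were seen, and single results with the block are not given for them. The members and lists were chosen with earlier results of these data known. Alternatives were other scalings, background corrections, filters, blocks, slides and pools left out, with the Y-linked covariate and the tests between probes of a gene added after the data were seen.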

Additional observations from a re-analysis of the deposited data

Results flagged for a closer look

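On Vegfb probe 1, wild-type pool 2 stood apart from the other wild-type pools, at 2.97 against 2.89 for the next pool, a gap that took 0.848 of the group's range. On Vegfb probe 2, null pool 2 stood apart at 2.60, against 2.32 for the next null pool, a gap of 0.928 of the range. Both gaps exceed Dixon's 95% critical value for 4 samples, and 2 of 34 groups tested were marked, where chance marks about 1 in 20.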

How the results depend on the processing

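The number of probes called, 884 by limma, was 298 with the median as the scale, 174 with no shift between arrays, 879 with quantile normalization, 0 with normexp, 621 with the deposited value table, 216 with no filter, 1813 with slide as a block, 0 on slide 1 or slide 2 alone, 3030 with the replicate block, 406 with the Y-linked covariate and 146 to 833 with 1 pool left out. Beside the counts of 0, probes with an unadjusted p under 0.05 numbered 918 with normexp, 2750 on slide 1 and 4023 on slide 2, against 5206 in the main test. Higher calls made up 68.8% of all calls, against 50.3% with the median scale (which put the median probe at -0.10, against -0.01), 78.7% with no shift, 59.3% with quantile normalization and 65.7% with the deposited table. Of the 10 genes 1 was called, against 0 with no shift, with normexp and on slide 1 or slide 2 alone (3, 3, 1 and 3 at an unadjusted p under 0.05), 2 with quantile normalization, the deposited table and slide as a block, 4 with the replicate block and 0 to 1 without 1 pool. On probes 1 to 3 of Vegfa the difference missed the threshold with no shift (0.74, 0.66 and 0.55) and normexp (0.72, 0.68 and 0.41), and on slide 1 (1.08, 0.88 and 0.81) and slide 2 (0.54, 0.58 and 0.43). Probe 3 also missed it with the median scale (0.53), no filter (0.62) and the Y-linked covariate (0.64). Flt1 probe 2 missed it with no shift (0.91), normexp (0.83), slide 1 (1.15) and slide 2 (0.82).

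Vegfb probe 1 passed with quantile normalization (0.43), the deposited table (0.46), the slide block (0.39) and the replicate block (0.39), and with the replicate block Vegfc (0.40), Nrp1 probe 3 (0.30) and Nrp2 (0.26) passed. Nrp1 probe 2 (0.64) passed with either block and among probes above background on all 8 arrays. The replicate block changed no other call among the members. The sign turned for Pgf with normexp (-0.025), Flt4 with the Y-linked covariate (0.19), and Nrp1 probe 1 with the median scale (-0.072), no shift (-0.052), quantile normalization (-0.0047), normexp (-0.054) and on slide 2 (-0.011). Over the 30 other genes named by the rule above, without those added later, 425 values under the alternatives kept their side of the threshold. Of the rest 187 lost it, 13 gained it and 2 changed sign. Normexp turned Ascl2 (-0.032) and Pdgfb (-0.094). The distances of Vegfa from Vegfb, Vegfc, Pgf, Kdr and Flt1 missed the threshold with normexp (0.24, 0.26, 0.74, 0.48 and 0.39) and the deposited table (0.29, 0.31, 0.67, 0.54 and 0.45), and paired by number, where p cannot go below 0.125, with the values 0.43, 0.41, 0.72, 0.61 and 0.55. On slides 1 and 2 alone they were 0.67 and 0.19 from Vegfb and 0.83 and 0.38 from Kdr. Without 1 pool, ranges were 0.73 to 0.88, 0.67 to 0.79 and 0.54 to 0.70 for Vegfa probes 1 to 3, and 0.52 to 0.73 for Nrp1 probe 2. The range crossed 0 for Vegfd (-0.17 to 0.0090, turned without wild-type pool 1), Flt4 (-0.13 to 0.076, without null pool 2 or wild-type pool 1), Nrp1 probe 1 (-0.042 to 0.088, without null pools 1 or 3 or wild-type pool 2) and Flt1 minus Kdr (-0.0035 to 0.10, without null pool 3). The cause of these changes was not tested, although slides alone leave 2 pools per group and a left-out pool leaves 7 arrays.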
